A study of Mus musculus with 6 samples.

Results

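The genes described here are *Myc*, its partner *Max*, the MYC antagonist *Mxd1* and 39 genes whose products make ribosomes. They were taken from a list of 42 gene symbols. The choice used no measured value of theirs as a criterion, but earlier results of these data were known when it was made. All 42 were found among the 47643 genes of the count table, and all 42 had at least 10 reads over the 6 samples, as did 11877 genes in all. The samples were CD4+ T cells from spleens of Tg4 Tiger *Nr4a3*-Tocky mice. Tg4 is a transgenic T cell receptor for myelin basic protein peptide, Tiger is a GFP reporter of *Il10*, and the *Nr4a3*-Tocky transgene drives a Timer protein that is blue when new and matures to red, so the reporter marks cells with T cell receptor signaling. Every mouse first received 80 μg of [4Y] MBP peptide under the skin. After 24 h the mice were given 800 μg of a pool of rat isotype antibodies, of anti-PD1 or of anti-Lag3, followed after 30 min by 8 μg of peptide, and Blue+Red+ CD4+ T cells were sorted 4 h later. Each of the 3 groups held 2 samples, and the isotype group, like the others, had been primed and re-challenged. There was no group without peptide, so that each comparison sets 1 antibody against another in re-stimulated cells.

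MYC is a transcription factor that binds DNA as a dimer with MAX, most often at the E-box CACGTG, while MXD1 pairs with the same partner and represses. T cells that receive antigen induce MYC and enlarge, and ribosome production is among the processes MYC is best known to raise. RNA polymerase I copies the ribosomal DNA in the nucleolus, small nucleolar RNA-protein complexes (snoRNPs) modify and help to cleave the transcript, and separate sets of factors assemble the small and the large ribosomal subunit around it.

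The E-box, as the motif MYC is best known to bind, was looked for in promoter windows of RefSeq (build GRCm38.p6), from 250 bases before to 50 bases after the start of each gene. The motif reads the same on both strands. A window was found for 35 of the 42 genes, and 7 of them held CACGTG, a share of 20% (exact 95% binomial interval 8.44% to 36.9%), while the other 28 did not. The motif was in 8.09% of the windows of all 27025 genes and in 12.3% of those of the 8518 genes also tested here, a share that lies within the interval. Within the 200 bases nearest the start, the shares were again 20% of the 35, with 6.19% of all genes and 9.70% of tested genes. The 5 that come first in the list are printed 5′ to 3′ on the strand of the gene, with the E-box in capitals, because they show the motif, its flanks and its distance from the start.
*Max*, 3 bases upstream of the start, chr12:76962234-76962263, minus strand: ggtgagcccggtCACGTGttagggggccga
*Nop2*, 60 bases upstream, chr6:125131811-125131840, plus strand: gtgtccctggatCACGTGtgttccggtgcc
*Wdr43*, 18 bases downstream, chr17:71616220-71616249, plus strand: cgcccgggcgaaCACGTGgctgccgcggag
*Pes1*, 3 bases downstream, chr11:3963965-3963994, plus strand: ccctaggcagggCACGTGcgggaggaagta
*Utp4*, 16 bases downstream, chr8:106893643-106893672, plus strand: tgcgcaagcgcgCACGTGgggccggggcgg
The other two were *Utp20* and *Mybbp1a*, with the motif 38 and 41 bases downstream of the start. The distances are from the RefSeq starts, which can differ from the GENCODE coordinates given for genes below. In GENCODE, *Max* (minus strand) starts at chr12:76962201, outside the printed stretch, and *Wdr43* at chr17:71615895, so their distances there would differ. A match of letters is a description and shows no binding.

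All genes of this program were detected in every sample, whichever antibody had been given, and most were strongly expressed. By mean CPM (counts per 1000000 counts of the library, scaled by the TMM method), all 42 lay above the median of the tested genes, the median gene of the set at percentile 90.4 and the lowest, *Mxd1*, at percentile 54.0. Since priming was at the poly(A) tail, reads come from the 3′ end whatever the length of the transcript, so CPM was not corrected for length. Levels are less certain for genes whose ends resemble or overlap other genes, as given below. Of the 42, 4 had over 1000 CPM, 26 had 100 to 1000 CPM and 12 had less than 100 CPM. Summed, they made up 2.14% to 2.44% of the scaled counts of a sample, and *Ncl* alone was 37.7% to 39.0% of that sum. The smallest number of reads for any of them in any sample was 32. In bulk samples such as these, fewer cells of a type and less RNA per cell cannot be told apart.

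**Figure D1:**
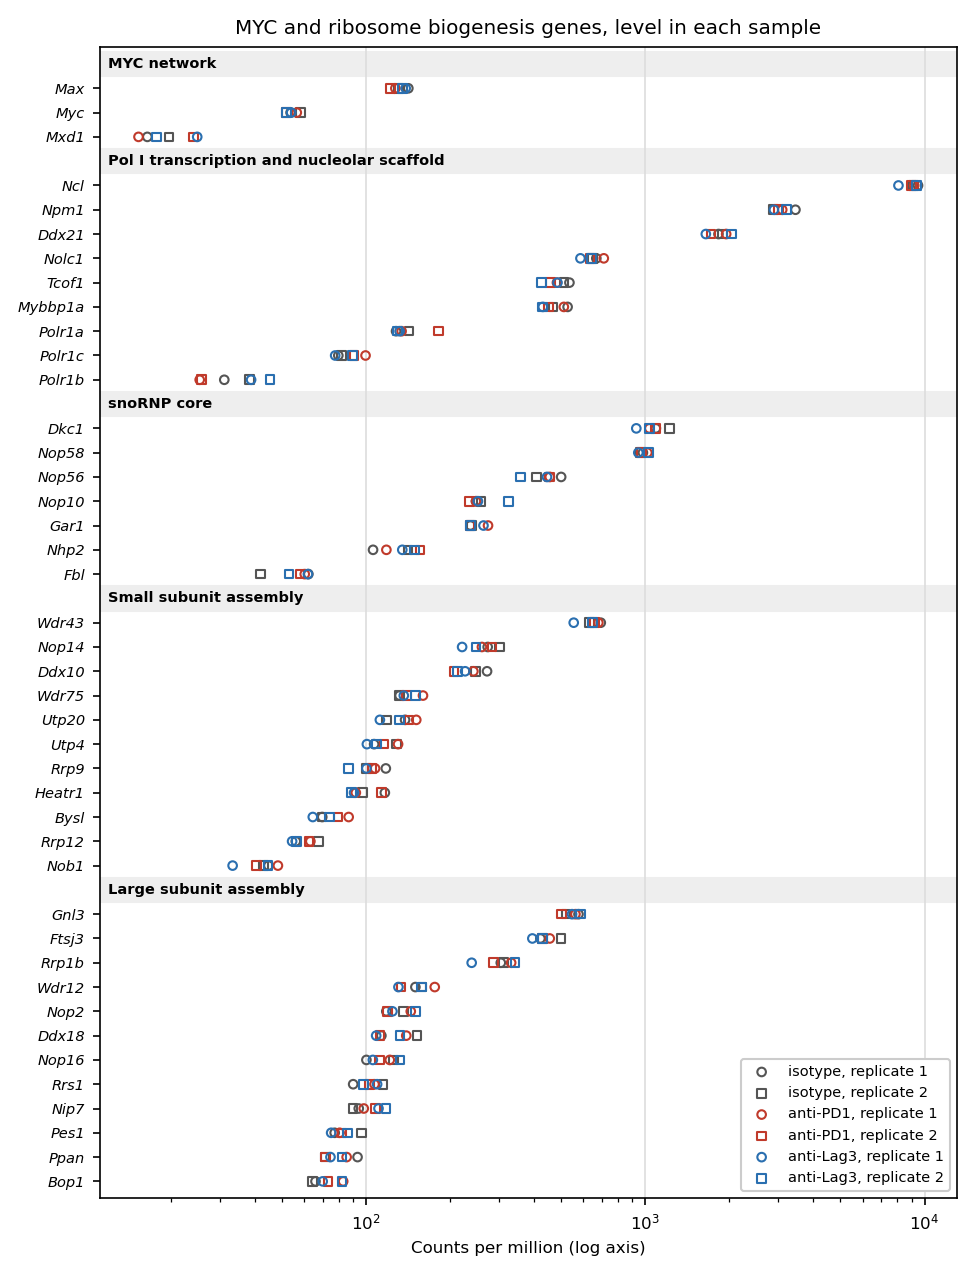
Level of each of the 42 genes in each of the 6 samples, in CPM on a log axis, with genes grouped by role and ordered by mean level; color gives the antibody, and circles and squares are replicates 1 and 2. Levels run from 15.3 CPM (*Mxd1*) to 9479 CPM (*Ncl*), while the 6 points of a gene lie within 1.5-fold of each other for 40 of 42 genes.

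No gene of the set passed the test between antibodies. With edgeR's quasi-likelihood test and Benjamini-Hochberg adjustment over the 11877 genes, 0 of 42 passed an adjusted p of 0.05 between anti-PD1 and isotype, where 107 genes, 0.901% of all tested, did so. The same count was 0 of 42 between anti-Lag3 and isotype, beside 5 genes or 0.0421% of all, and 0 of 42 between anti-PD1 and anti-Lag3, beside 36 genes or 0.303% of all. DESeq2 and limma-voom also called 0 of the 42 in each comparison. At an unadjusted p under 0.05, edgeR found 0 of 42 with anti-PD1 against isotype (8.12% of all genes), 4 of 42 with anti-Lag3 against isotype (5.96%) and 2 of 42 with anti-PD1 against anti-Lag3 (6.53%). These p-values refer only to the samples sequenced. With 2 samples a group, the spread used in each edgeR test came mostly from all genes together. It had 37.2 prior degrees of freedom from that source, beside 3 from the gene's own samples. The p-values and the intervals below thus rest little on a gene's own replicates. The labels do not say how many mice each sample held. The paper's methods describe cells of replicate mice stained separately for sorting.

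A missed threshold does not show that levels were equal, so the intervals of the differences matter here. Between anti-PD1 and isotype, the 95% interval lay within 1.5-fold in either direction for 37 of 42 genes and within 2-fold for all 42. The genes outside 1.5-fold were *Mxd1*, *Polr1b*, *Bysl*, *Fbl* and *Bop1*, all with fewer than 100 CPM. For anti-Lag3 against isotype, 38 of 42 intervals lay within 1.5-fold and 42 within 2-fold. For anti-PD1 against anti-Lag3, 38 lay within 1.5-fold and 41 within 2-fold, *Polr1b* being the exception to the latter. Standard errors ran from 0.063 (*Ncl*) to 0.33 (*Mxd1*) on the log2 scale.

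**Figure D2:**
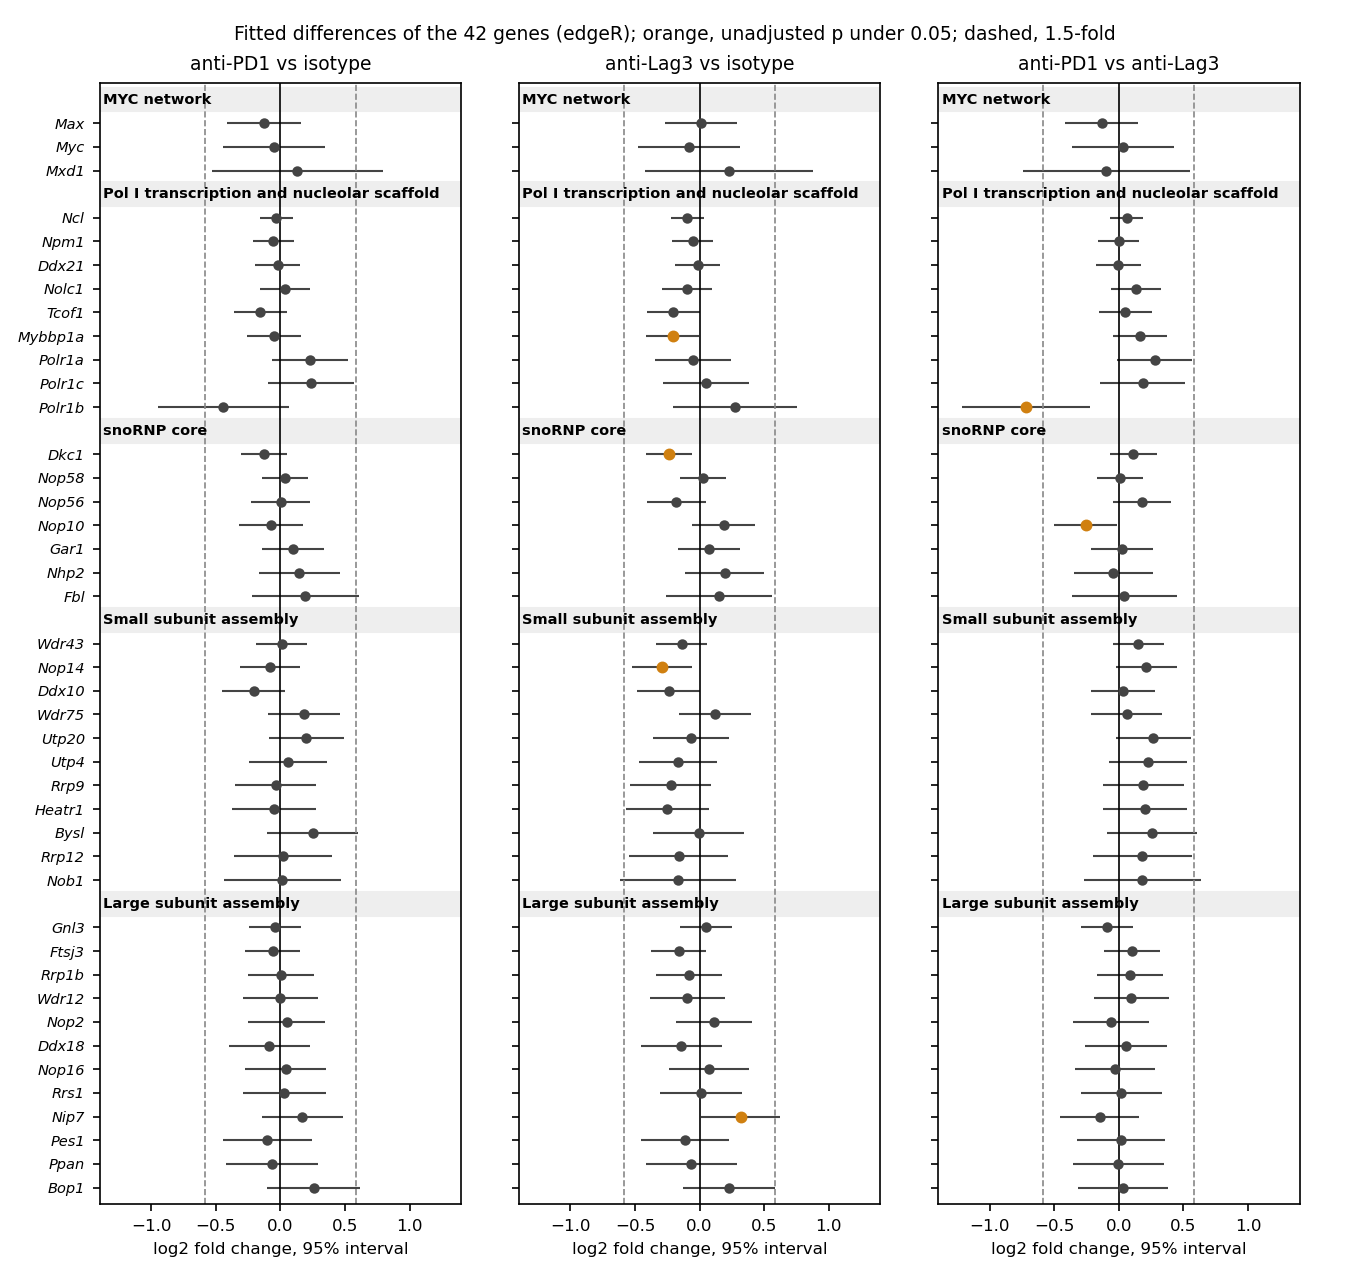
Fitted log2 fold change of each gene with its 95% interval (edgeR, 2 samples a group) in the 3 comparisons, genes grouped by role; dashed lines mark 1.5-fold and orange points have an unadjusted p under 0.05. The intervals narrow from *Mxd1* to *Ncl*, and 0, 4 and 2 points are orange in the panels from left to right.

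The number of genes fitted above 0 varied with the libraries in the fit. For anti-PD1 against isotype, 23 of 42 fitted log2 fold changes were above 0, beside 50.6% of all genes, and their median was 0.00, as was that of all genes. The count was 13 of 42 without anti-PD1 replicate 1 and 26 of 42 without anti-PD1 replicate 2. For anti-Lag3 against isotype, 16 of 42 were above 0 (50.1% of all genes) and the median was -0.07 (0.00 for all genes). With a library left out, that count ran from 12 of 42 (without anti-Lag3 replicate 2) to 20 of 42 (without anti-Lag3 replicate 1). For anti-PD1 against anti-Lag3, 30 of 42 were above 0 (49.6% of all genes) and the median was 0.05 (0.00 for all genes). This last count was 22 of 42 without anti-PD1 replicate 1, 22 of 42 without anti-Lag3 replicate 1 and 35 of 42 without anti-PD1 replicate 2. It stayed at 30 of 42 without anti-Lag3 replicate 2. The comparisons share samples, so their signs are not independent of each other.

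Anti-PD1 and isotype did not overlap for 12 of 42 genes, 6 higher and 6 lower with anti-PD1, beside 37.4% of all genes. Anti-Lag3 and isotype did not overlap for 12 of 42, 4 higher and 8 lower with anti-Lag3 (34.6% of all genes). Anti-PD1 and anti-Lag3 did not overlap for 16 of 42, 12 higher and 4 lower with anti-PD1 (35.9% of all genes). These counts are near their backgrounds or under them.

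In size, too, the differences were small. The median absolute log2 fold change of the 42 was 0.06 for anti-PD1 against isotype, and 0.14 for the 5467 genes with a mean CPM at or above that of *Mxd1*. It was 0.13 beside 0.14 for anti-Lag3 against isotype and 0.10 beside 0.14 for anti-PD1 against anti-Lag3. Of the 42, 30, 22 and 26 had an absolute value below the median of those 5467 genes in the 3 comparisons. The coefficient of variation over all 6 samples had a median of 10.3% for the 42 (3.38% for *Nop58* to 23.4% for *Polr1b*) and of 13.2% for the 5467 genes. The 42 genes lie high among those 5467, where counting error is smaller, and the part of level in these medians was not tested.

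**Figure D3:**
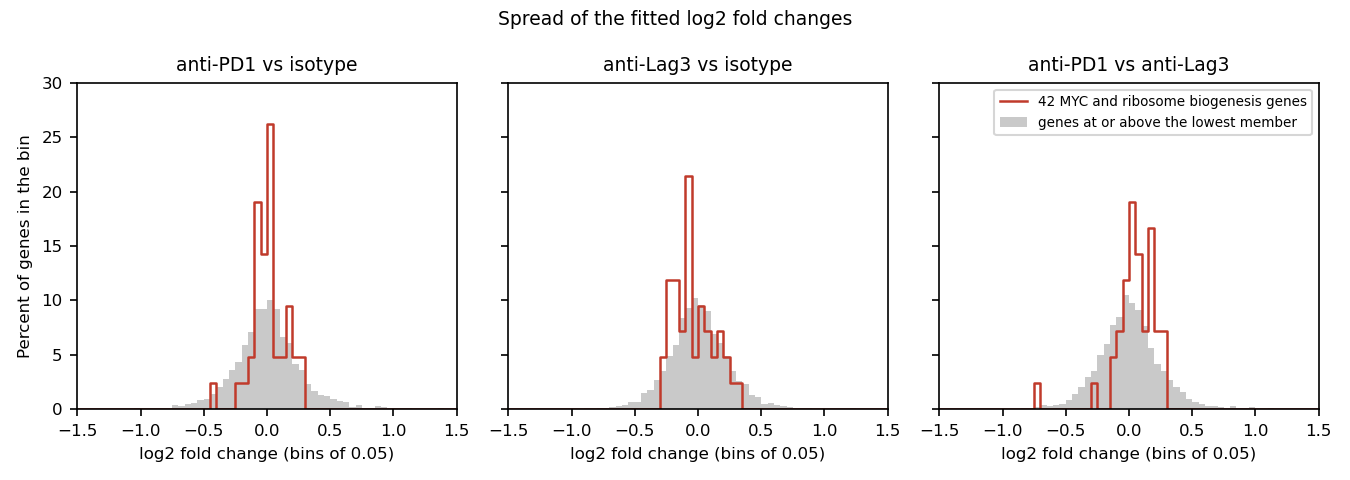
Percent of genes in each bin of fitted log2 fold change, in bins of 0.05, for the 42 genes (red line) and the 5467 genes with a mean CPM at or above that of the lowest of them (grey bars). The red line is narrow around 0 in the left panel, lies slightly left of 0 in the middle and slightly right of 0 in the right panel, where *Polr1b* stands alone at -0.72.

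The 3 genes of the MYC network come first. *Myc* (chr15:61985391-61990374) had 53.7 and 58.4 CPM with isotype, 56.5 and 51.9 CPM with anti-PD1, and 54.0 and 52.0 CPM with anti-Lag3. The 6 values lay within 1.12-fold of each other and the 3 groups overlapped. The difference of anti-PD1 from isotype was -0.05 on the log2 scale (SE 0.20, 95% interval -0.45 to 0.35), and that of anti-Lag3 from isotype was -0.08 (SE 0.19, interval -0.48 to 0.31). The mRNA of the transcription factor that heads the program thus showed no detectable difference, and the intervals run from 0.719-fold to 1.27-fold over both comparisons. *Max* (chr12:76937269-76962201), the obligate partner of MYC, had 142 and 131 CPM with isotype, 127 and 122 with anti-PD1, and 139 and 135 with anti-Lag3. Both anti-PD1 samples were below the other 4, by -0.13 against isotype (SE 0.14, edgeR adjusted p 0.918). *Mxd1* (chr6:86647042-86669161), which competes with MYC for MAX, was the least expressed of the 42, with 16.5 and 19.7 CPM in isotype, 15.3 and 24.1 in anti-PD1, and 24.9 and 17.8 in anti-Lag3. Its replicates differed by more than its groups, and its intervals were the widest of the 42 (0.691-fold to 1.73-fold for anti-PD1 against isotype). A gene model on the same strand, *Gm44292*, overlaps *Mxd1* and was itself given 112 reads, beside the 282 of *Mxd1*.

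Among the 9 genes of RNA polymerase I transcription and the nucleolar scaffold, 1 stood apart. The group holds 3 polymerase I subunits (*Polr1a*, *Polr1b*, *Polr1c*), *Tcof1* and *Nolc1*, which code for treacle and a related nucleolar phosphoprotein, the abundant nucleolar proteins *Ncl* (nucleolin) and *Npm1* (nucleophosmin), the RNA helicase *Ddx21*, and *Mybbp1a*, a nucleolar protein known as a MYB-binding protein. *Polr1b* (chr2:129100995-129126594) codes for the second largest subunit of the enzyme. It had 31.1 and 38.2 CPM in isotype, 25.4 and 25.8 in anti-PD1, and 38.8 and 45.3 in anti-Lag3. Both anti-PD1 samples were below and both anti-Lag3 samples above the 2 isotype samples, and no groups overlapped. The log2 difference of anti-PD1 from anti-Lag3 was -0.72 (SE 0.25, 95% interval -1.21 to -0.22), the largest absolute difference among the 42 in any comparison. Its edgeR p was 0.0056 unadjusted and 0.419 adjusted, so it did not pass. From isotype, anti-PD1 differed by -0.44 (SE 0.25, adjusted p 0.699, the smallest of the 42 in that comparison) and anti-Lag3 by 0.28 (SE 0.24, adjusted p 0.941). The gene rests on 53 to 122 reads a sample. In addition, at least 100 of the last 300 bases of its longest annotated transcript match transcripts of 64 other genes at 95% identity or more, so the placing of its reads is uncertain.

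The other genes of polymerase I transcription varied less. *Polr1c*, a subunit shared with RNA polymerase III, had 79.6 and 81.7 CPM in isotype, 99.7 and 90.8 in anti-PD1, and 77.6 and 89.5 in anti-Lag3. The anti-PD1 samples were the highest pair, by 0.24 against isotype (SE 0.16, edgeR adjusted p 0.802), so that the subunit genes did not share a sign. *Polr1a*, which codes for the largest subunit, had 182 CPM in anti-PD1 replicate 2 and 128 to 142 CPM in the other 5 samples, so that 1 library set its difference from isotype of 0.23. Without that library the sample left, anti-PD1 replicate 1, had 134 CPM, between the isotype values of 128 and 142. *Ncl* (chr1:86344719-86359400), the most abundant of the 42, had 9479 and 9119 CPM in isotype, 9184 and 8987 in anti-PD1, and 8066 and 9360 in anti-Lag3. With 19128 to 25200 reads a sample it gave the tightest estimates, -0.03 for anti-PD1 against isotype (95% interval -0.16 to 0.09) and -0.09 for anti-Lag3 against isotype (-0.22 to 0.03). *Npm1* had 2876 to 3450 CPM and *Ddx21* 1648 to 2033 CPM, with differences within 0.06 of 0 in all comparisons. *Mybbp1a* had 527 and 467 CPM in isotype, 511 and 451 in anti-PD1, and 430 in both anti-Lag3 samples. Anti-Lag3 was the lowest group, by -0.21 against isotype (SE 0.10, unadjusted p 0.0483, edgeR adjusted p 0.829). *Nolc1* had 586 to 711 CPM and *Tcof1* 425 to 535 CPM.

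The 7 core proteins of snoRNPs fall into the C/D set (*Fbl*, *Nop56*, *Nop58*), which guides methylation of ribosomal RNA, and the H/ACA set (*Dkc1*, *Gar1*, *Nhp2*, *Nop10*), which guides pseudouridine formation. *Dkc1* (chrX:75095854-75109777), the pseudouridine synthase dyskerin, had 1092 and 1224 CPM in isotype, 1035 and 1088 in anti-PD1, and 929 and 1035 in anti-Lag3. The 2 isotype samples were the highest of the 6, above both other groups. The log2 difference of anti-Lag3 from isotype was -0.24 (SE 0.09, 95% interval -0.42 to -0.06), the smallest adjusted p of the 42 in that comparison at 0.690, with an unadjusted p of 0.0106 (edgeR). Anti-PD1 differed from isotype by -0.13 (SE 0.09, adjusted p 0.805). *Nop10*, the smallest protein of the H/ACA set, did not share that order, with 248 and 258 CPM in isotype, 248 and 235 in anti-PD1, and 252 and 324 in anti-Lag3. Its difference of anti-PD1 from anti-Lag3, -0.26 (SE 0.12, unadjusted p 0.0407, edgeR adjusted p 0.743), came mostly from anti-Lag3 replicate 2 and was -0.07 without it. *Fbl*, the methyltransferase fibrillarin, had 62.2 and 41.9 CPM in isotype, 60.4 and 58.1 in anti-PD1, and 62.0 and 53.1 in anti-Lag3. Here 1 isotype library lay below the other 5, and the difference of anti-PD1 from isotype was 0.19 (SE 0.21). *Nop58* had the lowest coefficient of variation of the 42, at 945 to 1027 CPM, but the end of its longest transcript resembles transcripts of 11 other genes by the same measure as for *Polr1b*, and these held 12370 reads beside its 13956. *Nop56* had 357 to 500 CPM and overlaps *Idh3b* on the other strand (1194 reads beside 6152). *Gar1* had 236 to 274 CPM and *Nhp2* 106 to 156 CPM. Over the 7 genes the median differences were 0.03, 0.07 and 0.03 for anti-PD1 against isotype, anti-Lag3 against isotype and anti-PD1 against anti-Lag3.

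The 11 listed genes of small subunit assembly shared a sign in 1 comparison. All 11 (*Heatr1*, *Utp4*, *Utp20*, *Wdr43*, *Wdr75*, *Rrp9*, *Rrp12*, *Nop14*, *Nob1*, *Bysl* and *Ddx10*) were fitted higher in anti-PD1 than in anti-Lag3, by 0.03 to 0.27 on the log2 scale with a median of 0.19, where 49.6% of all genes were above 0. None of the 11 had an unadjusted p under 0.05. The groups did not overlap in 8 of the 11, beside 35.9% of all genes. The 38 other genes of small subunit assembly that were tested did not share this sign, with 19 above and 19 below 0 (median 0.01). The count was 9 of 11 without anti-Lag3 replicate 1, 10 of 11 without anti-Lag3 replicate 2 and 9 of 11 without anti-PD1 replicate 1. Against isotype, 10 of 11 were fitted lower in anti-Lag3 (median -0.17), while 50.1% of all genes and 19 of the 38 others were fitted higher. The number fitted lower was 7 of 11 when anti-Lag3 replicate 1 was left out (median -0.12), and 8 of 11 when isotype replicate 1 was left out (median -0.10). For anti-PD1 against isotype the median was 0.01, with 7 of 11 above 0.

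*Wdr43*, the highest of this group and a component of the complex that first binds the nascent ribosomal RNA, had 693 and 632 CPM in isotype, 679 and 657 in anti-PD1, and 555 and 649 in anti-Lag3. The low value was that of anti-Lag3 replicate 1. *Nop14*, a processome factor, had 273 and 301 CPM in isotype, 260 and 283 in anti-PD1, and 221 and 248 in anti-Lag3. Both anti-Lag3 samples were the lowest of the 6, by -0.29 against isotype (SE 0.12, 95% interval -0.53 to -0.06, unadjusted p 0.0167, edgeR adjusted p 0.713). *Ddx10*, a helicase, had 271 and 247 CPM in isotype, 242 and 207 in anti-PD1, and 226 and 212 in anti-Lag3, so that all 4 samples given a blocking antibody lay below both isotype samples. The differences were -0.21 (SE 0.12, adjusted p 0.713) and -0.24 (SE 0.12, adjusted p 0.843). *Bysl* (bystin) had 69.7 and 69.6 CPM in isotype, 86.7 and 79.3 in anti-PD1, and 64.5 and 73.9 in anti-Lag3, which put anti-PD1 above the rest by 0.25 against isotype (SE 0.17, adjusted p 0.802). *Ccnd3*, on the other strand, overlaps *Bysl* and had more reads (2275 over all samples, and 1048 for *Bysl*). The kit marks strand, but the setting used in counting is not given in the sources used here. The other 7 genes had 33.3 (*Nob1*) to 160 CPM (*Wdr75*).

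The 12 genes of large subunit assembly (*Bop1*, *Pes1*, *Wdr12*, *Ftsj3*, *Rrs1*, *Nop2*, *Nop16*, *Rrp1b*, *Ddx18*, *Gnl3*, *Ppan* and *Nip7*) had 7, 6 and 7 of 12 differences above 0 in the comparisons in the same order, with medians of 0.00, -0.03 and 0.02. These counts varied when single libraries were left out. For anti-PD1 against anti-Lag3, 2 of 12 were above 0 without replicate 1 of either group, 9 of 12 without anti-Lag3 replicate 2 and 10 of 12 without anti-PD1 replicate 2. For anti-PD1 against isotype, 3 of 12 were above 0 without anti-PD1 replicate 1 (median -0.10), 4 of 12 without isotype replicate 1, and 10 of 12 without replicate 2 of either group (medians 0.08 and 0.10). For anti-Lag3 against isotype, the count was 4 to 7 of 12 with a library left out. *Bop1*, *Pes1* and *Wdr12* code for the 3 proteins of the PeBoW complex, which is needed for maturation of the large subunit RNA. *Bop1* had 66.0 and 64.4 CPM in isotype, 82.9 and 73.2 in anti-PD1, and 70.0 and 82.1 in anti-Lag3. All 4 samples given a blocking antibody were above both isotype samples, by 0.26 for anti-PD1 (SE 0.18, edgeR adjusted p 0.798) and 0.22 for anti-Lag3 (SE 0.18, adjusted p 0.931). *Pes1* did not have that order, at 77.3 and 96.6 CPM in isotype, 80.5 and 82.2 in anti-PD1, and 75.1 and 85.8 in anti-Lag3, and *Wdr12* had 131 to 176 CPM with overlapping groups, so that the genes of this complex did not differ together. *Gnl3*, which codes for nucleostemin and was the highest of the group, had 577 and 520 CPM in isotype, 563 and 502 in anti-PD1, and 547 and 586 in anti-Lag3, with all differences within 0.10 of 0. *Pbrm1* overlaps *Gnl3* on the other strand, with 4571 reads beside 7795. *Nip7*, a factor that joins late pre-ribosomes, had 94.2 and 89.8 CPM in isotype, 98.2 and 108 in anti-PD1, and 111 and 118 in anti-Lag3. Its groups were in order without overlap, and the difference of anti-Lag3 from isotype was 0.32 (SE 0.15, 95% interval 0.01 to 0.62, unadjusted p 0.0435, edgeR adjusted p 0.810). The remaining genes of this group had 71.2 (*Ppan*) to 499 CPM (*Ftsj3*). *Nop14*, *Mybbp1a*, *Nip7*, *Nop10* and *Polr1a* were singled out after their values were seen.

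The 42 genes also differed between replicates of the same group. Relative to the mean log2 CPM of the 6 samples, the median gene of the 42 stood at -0.09 in anti-Lag3 replicate 1, with 32 of 42 genes below their mean, and at 0.02 in anti-Lag3 replicate 2, with 18 of 42 below. Over the 5467 genes at these levels, anti-Lag3 replicate 1 stood at -0.01. Anti-PD1 replicate 1 was the highest, at 0.07, with 31 of 42 above their mean, while anti-PD1 replicate 2 was at -0.02. The isotype samples stood at -0.01 and 0.02. Within the anti-Lag3 group, 30 of 42 genes were higher in replicate 2, by a median of 0.14, and within the anti-PD1 group 33 of 42 were higher in replicate 1, by a median of 0.08. These gaps between replicates exceed the medians of 0.00, -0.07 and 0.05 between groups. The isotype replicates were closer, with 22 of 42 genes higher in replicate 2 and a median difference of 0.0069. The part of single libraries in the differences between antibodies was not tested. Without anti-Lag3 replicate 1, the median difference of anti-Lag3 from isotype was -0.01, and without anti-Lag3 replicate 2 it was -0.11.

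**Figure D4:**
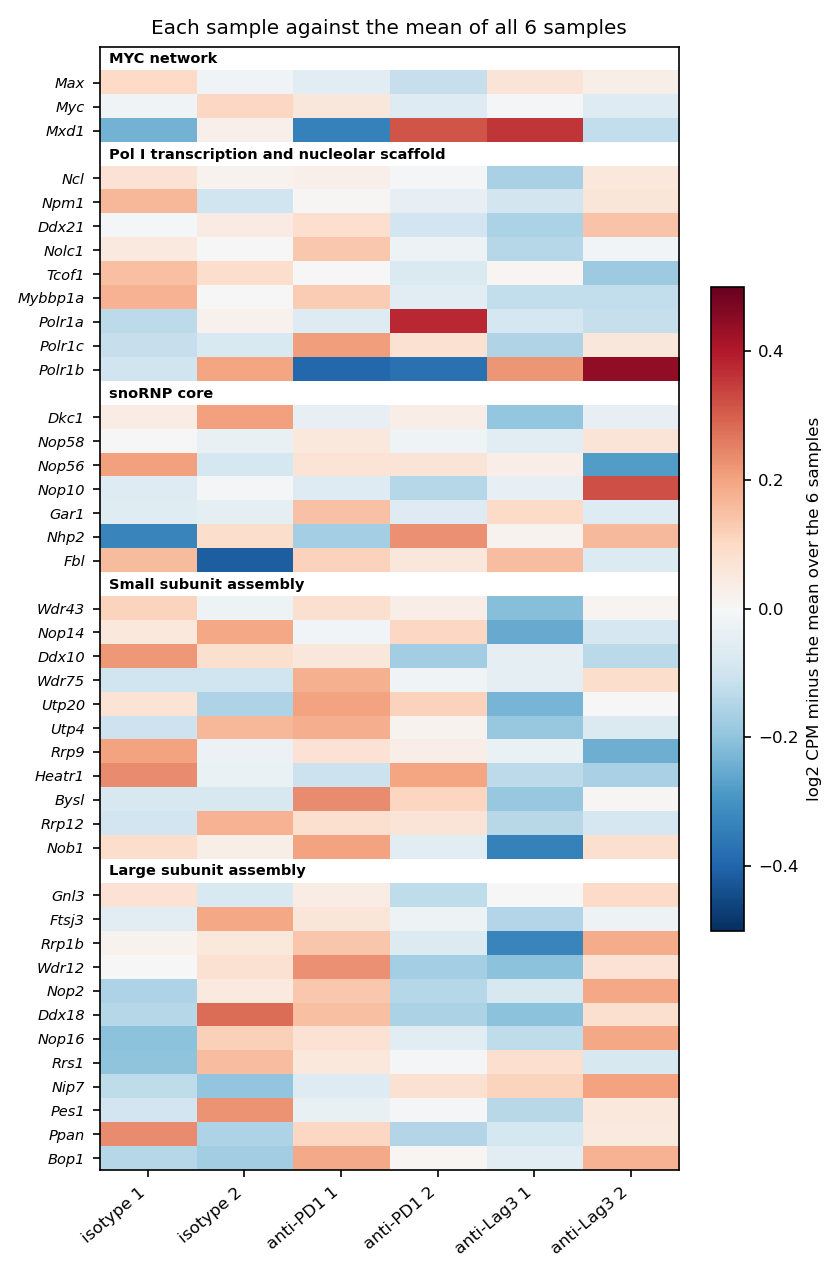
Deviation of each gene in each sample from its mean over the 6 samples, in log2 CPM (red higher, blue lower), genes grouped by role. The anti-Lag3 replicate 1 column is mostly blue (32 of 42 genes below their mean), and *Polr1b* is blue in both anti-PD1 samples and red in both anti-Lag3 samples.

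Other genes of the same pathways were examined for comparison, 136 listed and 132 with enough reads. Of the 132, 0 passed an adjusted p of 0.05 in edgeR in any comparison, and 5, 11 and 5 had an unadjusted p under 0.05 in the same order of comparisons, beside 8.12%, 5.96% and 6.53% of all genes. DESeq2 and limma-voom also called 0. Their median differences were 0.00, -0.03 and 0.00. Among 38 other genes of small subunit assembly, *Nol6*, a processome component, had 67.4 and 83.7 CPM in isotype, 59.9 and 50.7 in anti-PD1, and 39.2 and 44.6 in anti-Lag3. All 4 samples given a blocking antibody lay below isotype, by -0.46 for anti-PD1 (SE 0.19, edgeR adjusted p 0.474) and by -0.85 for anti-Lag3 (SE 0.20, adjusted p 0.138), the latter being the smallest adjusted p among the 132. With a filter of 1 read in place of 10 reads over all samples, its adjusted p was 0.0344. Among 50 other genes of large subunit assembly, the nearest to the threshold was *Gnl3l*, a relative of nucleostemin, at 86.2 and 72.9 CPM in isotype, 60.9 and 55.6 in anti-PD1, and 68.3 and 79.1 in anti-Lag3 (-0.45 for anti-PD1 against isotype, SE 0.18, adjusted p 0.445). Among 16 other polymerase I genes it was *Twistnb*, a subunit gene, at 115 and 108 CPM in isotype, 126 and 143 in anti-PD1, and 139 and 137 in anti-Lag3 (0.27 for anti-PD1 against isotype, SE 0.14, adjusted p 0.672). For anti-Lag3 against isotype, 4 of these 16 had an unadjusted p under 0.05 in edgeR, beside 5.96% of all genes. In that comparison 8 of the 16 were fitted above 0 and 8 below. The nearest there was *Polr1d*, named after the values were seen, at 119 and 125 CPM in isotype and 156 and 158 in anti-Lag3 (0.36, SE 0.14, edgeR adjusted p 0.690).

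Of 10 other genes of the MYC network, 8 were tested, since *Mycn* had 1 read and *Mycl* had 0 over all samples, so *Myc* was the only MYC family member measured at a level to be tested. The 8 had 69 (*Mxd4*) to 2305 reads (*Mga*, which codes for a MAX partner) over all samples. Of the 8, 6 were fitted lower in anti-PD1 than in isotype (median -0.19), where 50.6% of all genes were fitted higher. In anti-Lag3, 7 were fitted lower than in isotype (median -0.29), where 50.1% of all genes were fitted higher. These signs were not recounted with a library left out. Of the 8, 0 passed the test in edgeR and 0 had an unadjusted p under 0.05. DESeq2 and limma-voom called 0 of them. *Zbtb17*, which codes for the MYC partner MIZ1, had 20.7 and 23.3 CPM in isotype, 13.9 in both anti-PD1 samples, and 16.4 and 15.6 in anti-Lag3, a difference of -0.67 for anti-PD1 against isotype (SE 0.33, edgeR adjusted p 0.617). Of 20 growth genes often described as MYC targets, 0 passed and the nearest was *Tfrc*, the transferrin receptor gene. It had 190 and 237 CPM in isotype, 306 and 243 in anti-PD1, and 199 and 261 in anti-Lag3, with a difference of 0.36 for anti-PD1 against isotype (SE 0.14, adjusted p 0.353). The list had a median of 0.02 for anti-PD1 and 0.06 for anti-Lag3 against isotype.

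The libraries held 2107715 to 2648920 counts, at which 3 counts correspond to 1.11 to 1.44 CPM, and *Gm42418*, an abundant noncoding transcript, took 17.35% to 21.04% of them. Markers of T cells summed to 1519 and 1629 CPM in isotype, 1382 and 1491 in anti-PD1, and 1669 and 1533 in anti-Lag3. Of these 7 markers, 0 passed the test in edgeR, 5 were fitted lower in anti-PD1 than in isotype (median -0.32) and 3 had an unadjusted p under 0.05 there. *Nr4a3*, whose reporter defined the sort, had 51.4 and 45.1 CPM in isotype, 29.7 and 29.4 in anti-PD1, and 40.9 and 36.8 in anti-Lag3 (-0.70 for anti-PD1 against isotype, SE 0.23, edgeR adjusted p 0.195). Of the 3 genes listed for the sort (*Nr4a3*, *Nr4a1* and *Cd69*), 2 were fitted lower in anti-PD1 than in isotype. The other, *Cd69*, was fitted higher (0.23, SE 0.21, edgeR adjusted p 0.881). The paper reports higher *Nr4a3*-Blue protein in responding cells with anti-PD1, a different measure from this mRNA. Markers of B cells (6 listed, of which *Cd79a* was at 0 in all samples) summed to 112 and 128 CPM in isotype, 50.7 to 62.3 in anti-PD1 and 81.8 to 122 in anti-Lag3. All 7 macrophage markers were detected and summed to 49.1 to 56.5, 15.8 to 30.7 and 25.3 to 27.1 CPM in the same order of groups, 4 genes of antigen presentation to 45.7 to 60.0, 20.6 to 29.8 and 19.4 to 47.9 CPM, and *Cd8a* with *Cd8b1* to 48.3 to 54.7, 29.8 to 34.5 and 32.7 to 33.7 CPM. The sums of the non-T cell markers and of *Cd8a* with *Cd8b1* were lower in both anti-PD1 samples than in both isotype samples. The macrophage sum and that of *Cd8a* with *Cd8b1* were lower in both anti-Lag3 samples too. In edgeR, *Igkc* (-2.51, adjusted p 0.0013), *Ighm* (-0.89, adjusted p 0.0084) and *C1qa* (-2.59, adjusted p 0.027) passed for anti-PD1 against isotype. *C1qa* had 12.7 and 11.7 CPM in isotype and 1.44 and 2.45 in anti-PD1, near the level of 3 counts. *Igkc* had 17.9 and 20.5 CPM in isotype and 4.79 and 2.04 in anti-PD1. Of the 7 macrophage markers, 6 were fitted lower in anti-PD1 than in isotype and 1 higher. *Ighm* also passed for anti-PD1 against anti-Lag3 (-0.88, adjusted p 0.023), and 0 of these markers passed for anti-Lag3 against isotype. The part of these markers in the differences of single genes such as *Nol6*, *Gnl3l* and *Polr1b* was not tested. Beside them, the 42 genes summed to 21386 to 24392 CPM a sample.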

How the data were processed

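Libraries were QuantSeq 3′ mRNA libraries, 6 in 3 groups of 2, grouped by the treatment given in the sample labels. After trimming, the authors used STAR 2.5.2a to align to GRCm38 and HTSeq to count reads per Ensembl gene, and the deposited counts are raw, whole numbers. The authors also deposited rlog values of DESeq2, which are on a log2 scale. They were used here only for an alternative. The annotation release and strand setting are not given in the sources used here. A further replicate batch of 3 samples, which the study had sorted and processed together and set aside as an outlier, was not analysed here. The paper does not say which of the 6 samples used here were processed together.

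Genes with at least 10 reads over the 6 samples were fitted in edgeR 4.0.16 (R 4.3.3) with TMM scaling, group as the only term and a quasi-likelihood test (legacy default). The Benjamini-Hochberg adjustment ran over all genes fitted, with a threshold of 0.05. Intervals are 95% intervals of the fitted log2 fold change and use the same spread, mostly shared across genes, as the p-values. Gene names and coordinates came from the GENCODE annotation of GRCm38 (47224 of 47643 identifiers matched). Each replicate was counted as a sample. Replicates were further apart than counting noise (chi-square over its degrees of freedom, pooled over genes, 2.65 to 3.29), which does not show that they came from different mice. Depth was 2107715 to 2648920 counts a sample. Intervals of shares cover counting error only.

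The members and lists were chosen with earlier results of these data known. Named genes were *Myc*, *Max* and *Mxd1*; in each role group, the gene with the highest mean CPM and those with the highest and lowest difference of anti-PD1 from isotype; the gene nearest to a call in each comparison; and the nearest gene of each other pathway list. The fits were tested on simulated data. Alternatives were DESeq2 1.42.0, limma-voom (limma 3.58.1), edgeR on the samples of 1 comparison, its newer quasi-likelihood method, other scalings and filters, each sample left out, a replicate block, and leaving out *Gm42418* and mitochondrial ribosomal RNA. The recount of genes under an unadjusted p of 0.05, the comparison with the 5467 genes at like levels and the search for similar 3′ ends (last 300 bases, 95% identity over 100 bases) were added after the data were seen. In that search 7 of the 42 genes had a match in another gene, and 15 of 42 overlap an annotated gene that has reads.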

Additional observations from a re-analysis of the deposited data

Results flagged for a closer look

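*Polr1b*, which codes for the second largest subunit of RNA polymerase I, drew attention because the 2 antibodies lay on opposite sides of isotype. Both anti-PD1 samples (25.4 and 25.8 CPM) were below and both anti-Lag3 samples (38.8 and 45.3 CPM) above the 2 isotype samples (31.1 and 38.2 CPM). The direct comparison of anti-PD1 with anti-Lag3 gave a log2 difference of -0.72 with an edgeR adjusted p of 0.419 (Benjamini-Hochberg, 11877 genes), so the difference was not established. The pattern was seen in 1 of 42 genes (2.38%) and in 285 of all 11877 genes (2.40%). Across the alternatives the difference ran from -0.82 to -0.19, the latter in the deposited rlog values, which shrink differences of genes with few reads.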

How the results depend on the processing

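The number of the 42 genes called stayed at 0 in all 48 alternative fits, and their smallest adjusted p in any of them was 0.183 (*Nop10*, anti-PD1 against anti-Lag3, without anti-Lag3 replicate 1). Counts over all genes moved more. For anti-PD1 against isotype (107 genes) they were 175 on the samples of that comparison alone and 46 to 161 with a sample left out. For anti-Lag3 against isotype (5 genes) they were 1 with DESeq2, 0 on those samples alone, with the newer quasi-likelihood method and with filterByExpr, 20 with a filter of 1 read, 3 without *Gm42418* and mitochondrial ribosomal RNA, and 0 to 16 with a sample left out. For anti-PD1 against anti-Lag3 (36 genes) they were 16 with DESeq2, 58 with a filter of 1 read and 3 to 49 with a sample left out. The cause was not tested. Other pathway genes called went from 0 to 1 for anti-Lag3 against isotype with a filter of 1 read (*Nol6*), and ran from 0 to 1 with a sample left out in both comparisons with isotype (*Polr2f*, a subunit shared by the RNA polymerases, without isotype replicate 1). With a sample left out, the median difference of the 42 ran from -0.05 to 0.04 for anti-PD1 against isotype, -0.11 to -0.0056 for anti-Lag3 against isotype and 0.011 to 0.13 for anti-PD1 against anti-Lag3. Where this left 1 sample in a group, it was assumed to vary like the others. Of 2142 recomputed values of single genes, 75 moved by more than 1 replicate SD, 64 of them with a sample left out. The number of the 42 under an unadjusted p of 0.05, recounted after the data were seen, was 0 to 2, 2 to 7 and 1 to 5 in the 3 comparisons; the share of all genes in the same fits was 4.08% to 8.91%, 2.34% to 7.28% and 2.80% to 7.74%, and 5.88% in the fit that gave 7 (limma-voom). Same-numbered samples did not deviate together (correlations 0.048, 0.050 and -0.049 over 5433 genes), so the numbers are not shown to pair samples. With the replicate number as a block, 0 of the 42 were called, their medians were 0.01, -0.06 and 0.06, and 144, 6 and 46 of all genes were called. With 2 samples a group, genes under 100 CPM were the least precise.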
